A study of Mus musculus with 15 samples.

Results

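Foxa2, Nkx6-1, Rfx6 and Mafa encode 4 transcription factors that build and maintain the insulin-producing beta cell, and open chromatin at these genes was followed in mouse islets across genotype and partial pancreatectomy (PPx). Every peak that the deposited tables assign to one of these 4 gene symbols was taken, in each of 4 tables of paired groups. This gave 22 listings of 7 distinct regions, out of 41774 listings in all: 4 of 7826 peaks for genotype before PPx, 7 of 13111 for genotype after PPx, 4 of 8070 for PPx in controls and 7 of 12767 for PPx in mice labelled KO. Peaks were assigned by gene name alone, while the 4 genes themselves were picked with earlier results of these data known.

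FOXA2 is a forkhead factor that can bind DNA in closed chromatin and acts from early endoderm onwards. NKX6-1 is a homeodomain protein that keeps beta cells from taking on features of other islet cells. RFX6 is a winged-helix factor needed for islet cells to form and for adult beta cells to secrete insulin. MAFA is a basic leucine zipper protein that binds the insulin promoter and marks mature beta cells. A peak in ATAC-seq, where the transposase Tn5 inserts sequencing adapters into accessible DNA, reports how open the regulatory DNA of these genes is, not how much of their RNA is made.

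The 15 libraries came from islets of male mice aged 3 months, with 40000 dispersed islet cells per library. All mice were Arid1aFl/Fl, that is, both alleles of the chromatin remodelling gene Arid1a could be deleted by Cre, and all carried MIP-rtTA, a doxycycline-dependent activator under the mouse insulin promoter. Controls had no TRE-Cre, while the KO-labelled mice (Arid1a βKO) also carried TRE-Cre, so Cre is driven in insulin-producing cells, and the islets also hold other cell types. All mice received doxycycline at 1 g/L for 2 weeks. The groups were 4 controls and 3 KO-labelled mice before PPx, and 4 controls and 4 KO-labelled mice at 6 days after PPx, an operation after which the beta cells left behind divide.

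The tables hold group means and no value per library, so the spread between single mice and the depth per library are not known here. A level below is the group mean of log2 normalised reads in a peak, and all peaks are 601 bp wide. Equal width makes peaks alike in window size only, so orders of levels between peaks are description. A fold is the difference of 2 group means. Every listed peak was detected as a peak in at least 2 libraries of the groups compared. The standard error (SE) of a fold was implied from its size and the p-value of the authors' test, and a peak was called at an FDR of 0.05 or below in that test. The targeted gene gave 1 peak, in exon 9 of Arid1a, which was higher and not lower under the KO label in the authors' deposited table, by a log2 fold of 4.28 before and 3.64 after PPx. Which exon is floxed is not given in the labels, and the groups are called KO-labelled throughout. Of defining islet genes, Ins1, Gcg and Sst had a peak in all 4 tables, Ucn3 in 1, and Ins2, Iapp, Slc2a2 and Ppy in 0.

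The 7 regions fell into 4 promoter peaks and 3 others, all given here on mm10 as deposited, with distances from the outermost start site in RefSeq (GRCm38.p6, the same assembly coordinates). Foxa2 (ENSMUSG00000037025) had 1 region, annotated as promoter, at chr2:148046235-148046835 in the table of genotype after PPx. It lay inside the transcribed side of the outermost start, with its centre 302 to 440 bp downstream in the 4 tables, between that start and the next RefSeq start at 148045948. Nkx6-1 (ENSMUSG00000035187) had a promoter region at chr5:101665097-101665697, centred at -686 bp from the start (negative is upstream). It also had 2 distal intergenic regions, one at chr5:101700455-101701055, at -36044 bp, and one beyond the gene's end at chr5:101645339-101645939, at 19072 bp. Rfx6 (ENSMUSG00000019900) had a promoter region at chr10:51677568-51678168, which covered the start site, and a region in the last intron, 18 of 18, at chr10:51727783-51728383, at 50323 bp. Mafa (ENSMUSG00000047591) had 1 region, at chr15:75748141-75748741, a promoter that covered the start site.

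**Figure D1:**
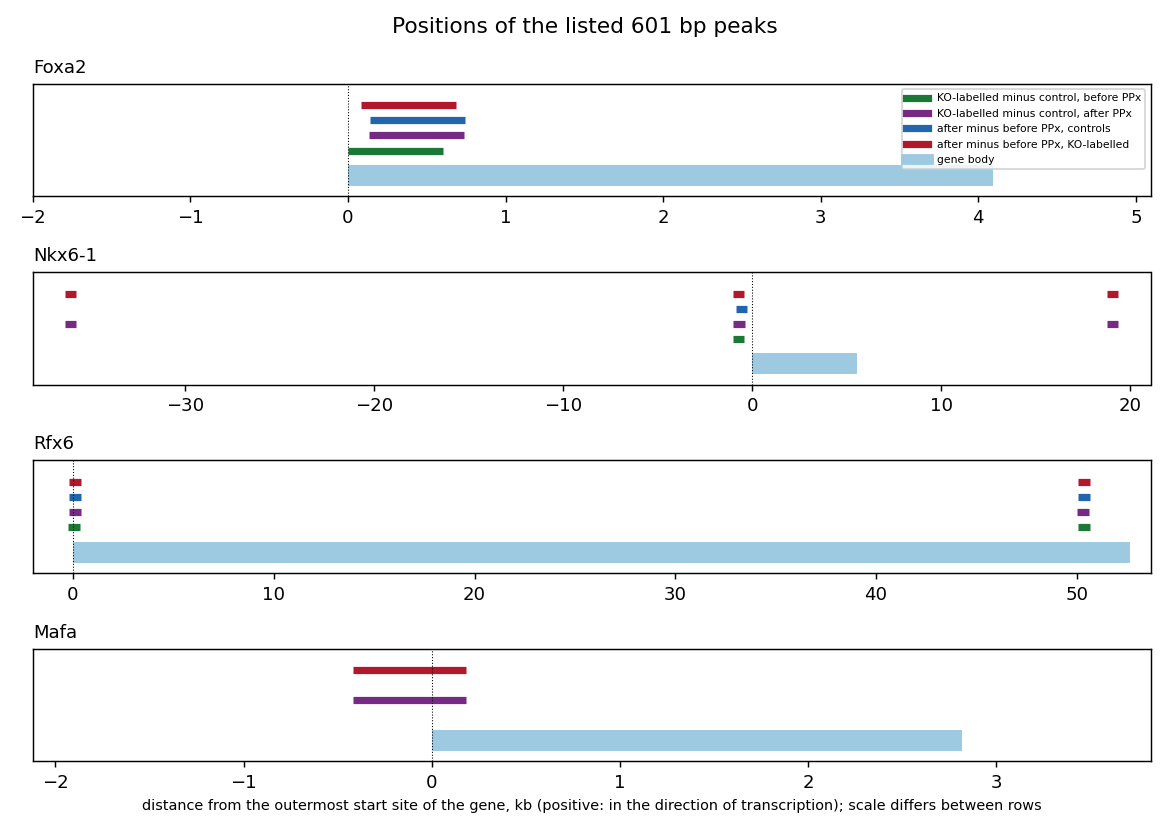
Positions of the listed 601 bp peaks of Foxa2, Nkx6-1, Rfx6 and Mafa, in kb from the outermost start site in the direction of transcription; each coloured bar is a peak of 1 of the 4 tables and the pale bar is the gene body. The 2 distal Nkx6-1 regions and the Mafa promoter appear only in the 2 tables that include the KO-labelled libraries after PPx.

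A pair of these starts can be shown with the sequence just upstream of them, from RefSeq, since the Foxa2 and Nkx6-1 promoter peaks were both called by genotype after PPx. The peaks do not cover the printed bases. The called Foxa2 peak lay 134 bp inside the start site, and the called Nkx6-1 peak began 386 bp upstream of it, beyond the printed window. The nearest listed peaks were uncalled ones of other tables, 3 bp from the Foxa2 window (genotype before PPx) and 17 bp from the Nkx6-1 window (PPx in controls). Each line gives 250 bases 5′ to 3′ on the gene's strand, ending at the base before the start site, with motif matches in capitals. The first lies at chr2:148046970-148047219 and the second at chr5:101664712-101664961, both on the minus strand.
Foxa2: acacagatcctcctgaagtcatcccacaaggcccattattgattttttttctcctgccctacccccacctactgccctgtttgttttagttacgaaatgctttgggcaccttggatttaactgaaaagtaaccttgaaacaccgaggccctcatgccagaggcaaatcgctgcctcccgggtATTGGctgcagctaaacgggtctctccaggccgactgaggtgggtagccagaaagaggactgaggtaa
Nkx6-1: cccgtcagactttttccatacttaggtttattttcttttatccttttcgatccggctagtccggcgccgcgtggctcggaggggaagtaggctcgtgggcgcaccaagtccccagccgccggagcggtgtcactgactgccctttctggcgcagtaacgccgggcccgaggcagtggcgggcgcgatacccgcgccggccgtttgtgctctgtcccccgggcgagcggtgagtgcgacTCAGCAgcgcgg
In both windows 10 short motifs were searched on both strands, with overlaps allowed. For the families of the 4 factors they were the forkhead motif TGTTTAC, the homeodomain motif TAATTA, the regulatory factor X motif GTTGCC and the large Maf protein motif TGCTGA. The others were the E-box motif CATCTG, the Jun and Fos motif TGANTCA, the nuclear factor Y motif CCAAT, the Sp1 family motif GGGCGG, the TATA box motif TATAAA and the cyclic AMP response motif TGACGT. The printed Foxa2 window held 1 match, CCAAT on the reverse strand, its first base at position -68 from the start site. The Nkx6-1 window held 1 match, TGCTGA on the reverse strand at position -12. Of 32851 RefSeq windows of this length, 33.8% held CCAAT and 16.1% held TGCTGA, so both matches are common ones. G and C made up 50.8% of the Foxa2 and 65.2% of the Nkx6-1 window, against a median of 52.4%. RefSeq gives 3 Foxa2 starts, and the printed window is that of the outermost one. The windows of the others were searched in the same way. That of the start at 148045948 held 3 matches, TGCTGA at -45 and GGGCGG at -160 and -71, with 67.2% G and C. That of the start at 148045464 held GGGCGG at -239 and TATAAA at -208, with 54.4% G and C. The Rfx6 window of the RefSeq table belongs to another start, 7100 bp from the nearest listed peak, and is not printed.

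Each group stands in 2 of the 4 tables, which allowed the tables to be put on one scale. At peaks with the same coordinates in 2 tables (157 to 2762 peaks), the mean of the shared group differed by a nearly constant amount: 0.18 for controls before PPx, 0.23 for KO-labelled islets before PPx, -0.05 for controls after PPx and 0.00 for KO-labelled islets after PPx. The largest SD of these differences was 0.0038. With these constants removed, both ways of linking the tables gave the same shift of -0.23 for genotype before PPx. Levels across the 4 groups below are on the scale of the table of genotype after PPx. They describe the groups, and tests were made only on folds, which a constant does not alter.

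The 3 promoters of Foxa2, Nkx6-1 and Rfx6 shared 1 pattern over the 4 groups: similar levels in 3 groups and the highest in KO-labelled islets after PPx. Foxa2 stood at 12.4 normalised reads in controls before PPx, 13.3 in KO-labelled islets before PPx, 12.1 in controls after PPx and 26.6 in KO-labelled islets after PPx. The Nkx6-1 promoter stood at 16.1, 14.3, 13.7 and 28.9 reads in that order. The Rfx6 promoter stood at 15.9, 17.4, 16.4 and 33.1 reads. Both tables that hold a group gave levels within 0.10 log2 units of each other for every one of these values, although the peak windows of the tables were shifted by up to 152 bp.

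The intron of Rfx6 had another order of levels, a description with no test. It stood at 17.8 reads in controls before PPx, 10.7 in KO-labelled islets before PPx, 14.6 in controls after PPx and 18.8 in KO-labelled islets after PPx. Its lowest group mean was thus that of the KO-labelled islets before PPx, and its highest lay close to that of resting controls. In the authors' deposited table of genotype before PPx, the intron had a higher level than the promoter of the same gene in controls (4.40 against 4.21) and a lower one in KO-labelled islets (3.67 against 4.35).

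**Figure D2:**
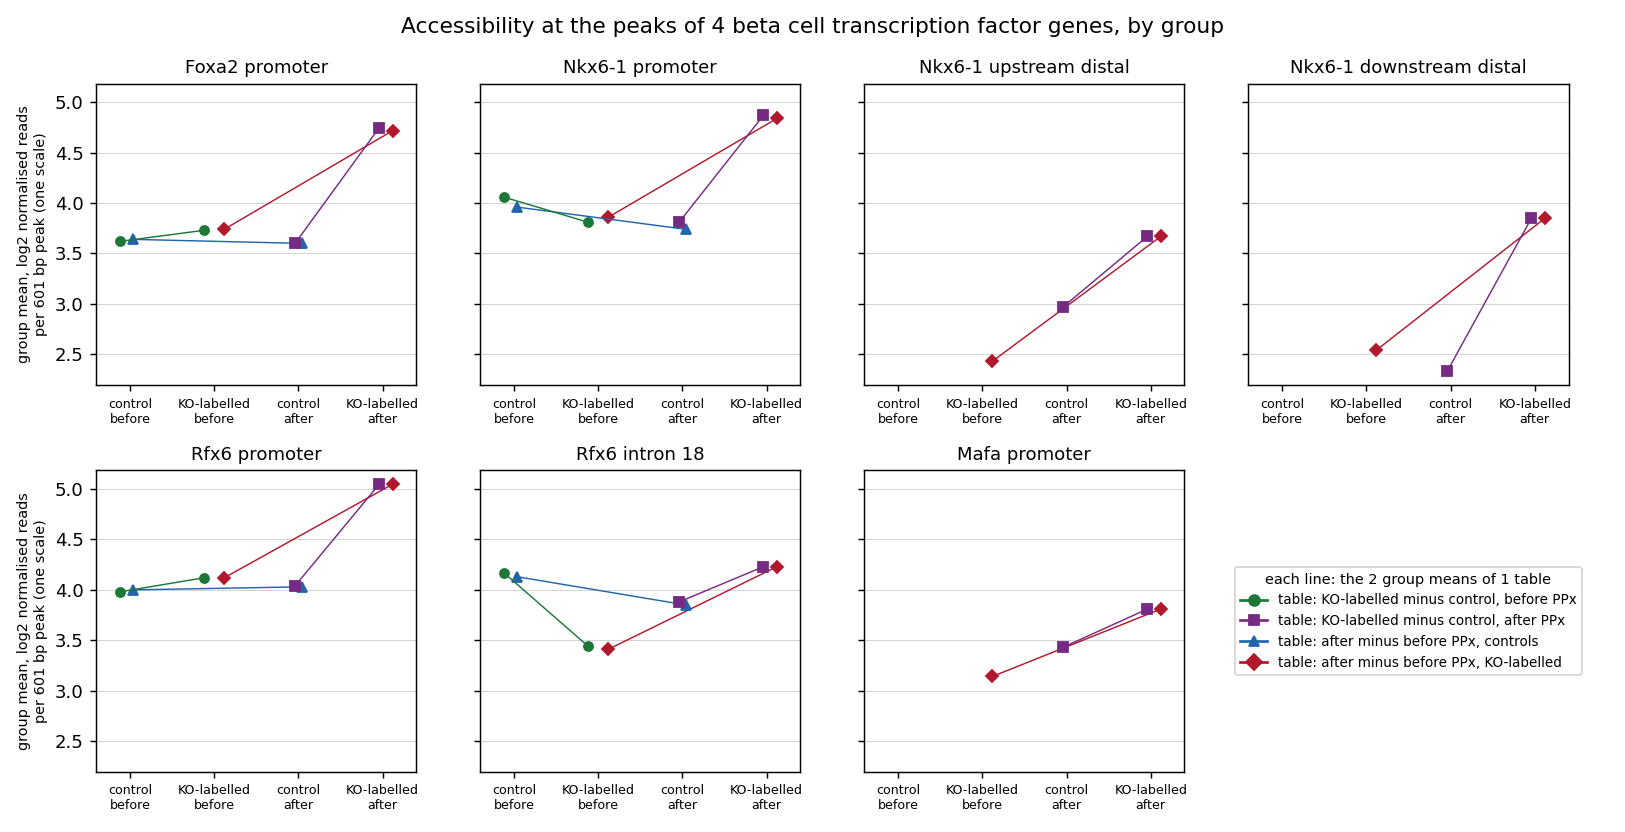
Group means of the 7 regions in log2 normalised reads per 601 bp peak on one scale (vertical axis) for the 4 groups (horizontal axis); each line joins the 2 group means of 1 table, and the tables give no spread between mice. KO-labelled islets after PPx have the highest mean in all 7 panels. Against controls after PPx 90.3% of all peaks were higher in this group, and against KO-labelled islets before PPx 97.1%. For genotype after PPx the distal Nkx6-1 regions and Mafa were listed only through this group, which favours a high mean there. For PPx in KO-labelled islets the same held for the downstream Nkx6-1 region and Mafa. The Rfx6 intron is the one where KO-labelled islets before PPx lie lowest among 4 listed groups by a visible margin (10.7 reads).

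Before PPx, the comparison of genotypes asks what the KO label does at rest. No region of the 4 genes passed: 0 of 4 were called higher and 0 lower, where 0.0128% of all peaks were called higher, and 0 of 4 had an unadjusted p under 0.05, where 3.14% of all peaks did. In the authors' deposited table the Foxa2 promoter had a mean of 3.85 in controls and 3.96 in KO-labelled islets, a log2 fold of 0.11 (implied SE 0.47, FDR 1). The Nkx6-1 promoter had 4.29 and 4.04 in the authors' deposited table, a fold of -0.24 (implied SE 0.40). The Rfx6 promoter had 4.21 and 4.35, a fold of 0.14 (implied SE 0.37) in the authors' deposited table. These 3 folds lay within their SE of 0. The Rfx6 intron had the widest gap of the 4 in the authors' deposited table, with a fold of -0.73 (implied SE 0.45, p = 0.101, FDR 1), and the peak was present in 4 of 4 controls and in 2 of 3 KO-labelled islets. Its 95% interval, from -1.60 to 0.14, includes 0. Among the 2349 peaks outside promoters, 86.8% had a larger fold. Mafa and the distal Nkx6-1 regions were not listed before PPx, so their levels in resting controls are not known here.

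After PPx, the comparison of genotypes asks the same in islets stimulated to regrow. The promoters of Foxa2, Nkx6-1 and Rfx6 were higher in KO-labelled islets and passed, the 4 other regions did not, and none was lower. That is 3 of 7 regions, or 3 of 4 promoters, where 9.89% of all peaks and 14.3% of promoter peaks were called higher. At an unadjusted p under 0.05 the count was 4 of 7, where 33.6% of all peaks had such a p. The median log2 fold of the 7 regions was 1.01, against 0.61 over all peaks of the table, of which 90.3% had a fold above 0. The distal Nkx6-1 regions and Mafa were detected in 0 of 4 controls, so they were listed only through KO-labelled libraries. Such listing favours a higher fold. The shift of the whole table is large. The 4 genes were picked with earlier results of these data known, so counts above these shares are not read as particular to the 4 genes.

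The Foxa2 promoter had a mean of 3.60 in controls and 4.75 in KO-labelled islets in the authors' deposited table, a log2 fold of 1.15 (95% interval 0.44 to 1.86, FDR 0.0329). Among controls 1 of 4 libraries had the peak, and among KO-labelled islets 4 of 4 did. Among promoter peaks, 6.02% had a larger fold. The Nkx6-1 promoter went from 3.81 to 4.87 in the authors' deposited table, a fold of 1.05 (interval 0.38 to 1.72, FDR 0.0360), with detection in 2 of 4 and 4 of 4 libraries, and 10.5% of promoter peaks had a larger fold. The Rfx6 promoter went from 4.04 to 5.05 in the authors' deposited table, a fold of 1.01 (interval 0.27 to 1.75, FDR 0.0492), again with detection in 2 of 4 and 4 of 4 libraries, and 13.4% of promoter peaks had a larger fold. Such calls were common at these levels. All listed peaks were sorted into 10 bins of concentration. Of the promoter peaks in the bin of Foxa2, 15.4% were called in either direction, and 22.4% in that of Nkx6-1 and Rfx6.

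The folds of the 3 called promoters differed from one another by less than any of their SEs (0.34 to 0.38). The calls were close to the threshold. Adjusted by Benjamini-Hochberg over all listed peaks of the table, which called 4.2% of them, Foxa2 passed at 0.0461, and Nkx6-1 at 0.0502 and Rfx6 at 0.0687 did not. With the median fold of the table subtracted, the folds were 0.54 for Foxa2, 0.44 for Nkx6-1 and 0.40 for Rfx6, and 0 of 7 regions passed.

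The Mafa promoter stood apart from the other 3 promoters in size, though not by a test. It had a mean of 3.43 in controls and 3.81 in KO-labelled islets in the authors' deposited table, a fold of 0.38 (interval -0.47 to 1.23, FDR 0.455). The peak was present in 0 of 4 controls and in 3 of 4 KO-labelled islets, and 83.4% of promoter peaks had a larger fold. Its level was also lower: 36.4% of promoter peaks lay below it in controls, against 44.4% for Foxa2, 54.4% for Nkx6-1 and 64.0% for Rfx6.

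The 2 distal Nkx6-1 regions were weak, and the larger fold was not called. The downstream region had a mean of 2.33 in controls and 3.85 in KO-labelled islets in the authors' deposited table, or 5.03 and 14.4 normalised reads, a log2 fold of 1.52 (interval 0.50 to 2.54, p = 0.00338). This p is smaller than that of the called Rfx6 promoter (p = 0.00737), yet the FDR is 1 in the authors' deposited table. The table gives an FDR of 1 to 634 peaks with a p under 0.05, all at a mean concentration of 3.50 or less, and this region lies at 3.28. Adjusted over all listed peaks its value was 0.0548. Only 0.79% of peaks outside promoters had a larger fold, and 0 of 4 controls and 2 of 4 KO-labelled islets had the peak. The region was thus listed only through KO-labelled libraries, which favours a large fold, and this rank is description. The upstream region had 2.97 and 3.67 in the authors' deposited table, a fold of 0.70 (interval -0.19 to 1.59, p = 0.125, FDR 1). The Rfx6 intron had 3.88 and 4.23 in the authors' deposited table, a fold of 0.35 (interval -0.35 to 1.05, FDR 0.405), below the median of the table.

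**Figure D3:**
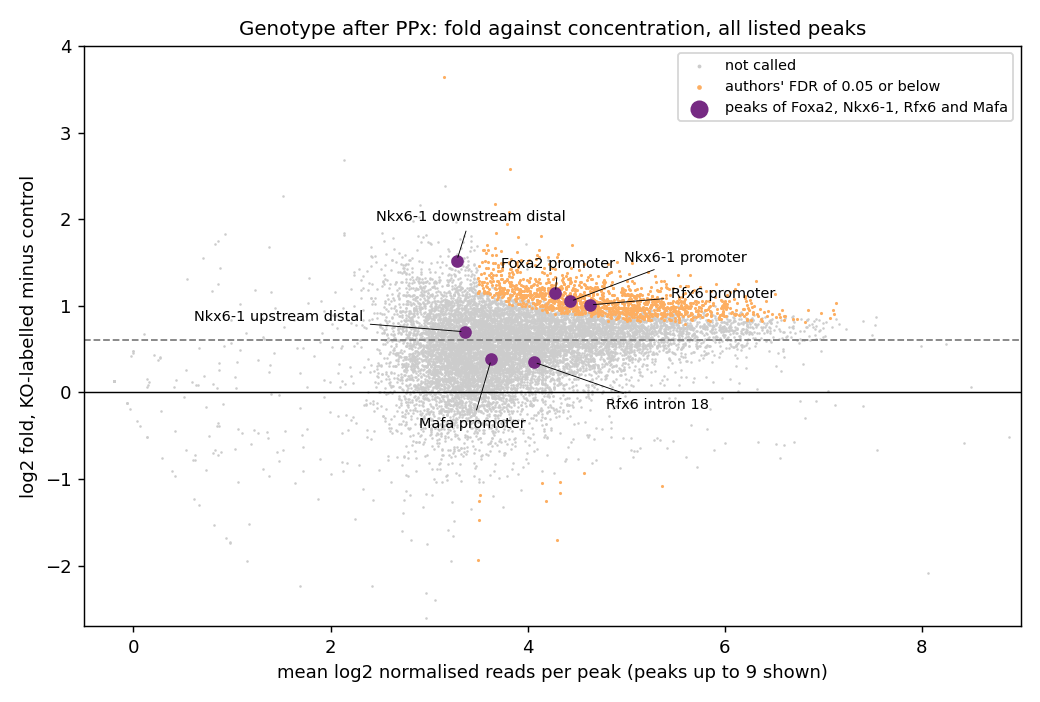
All listed peaks for genotype after PPx, with mean log2 normalised reads on the horizontal axis (shown from -0.5 to 9) and the log2 fold, KO-labelled minus control, on the vertical axis; orange peaks have an authors' FDR of 0.05 or below, purple marks the 7 regions and the dashed line is the median fold of 0.61. The 3 called promoters sit in the lower part of the orange band, the downstream Nkx6-1 region lies left of it at a mean of 3.28, and Mafa and the Rfx6 intron lie under the median.

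In control mice, the comparison after with before PPx asks what the operation does in islets without Cre. None of the 4 listed regions passed: 0 were called, as were 0% of all peaks, and 0 of 4 had an unadjusted p under 0.05, where 2.53% of all peaks did. Folds in the authors' deposited table were -0.04 for the Foxa2 promoter (implied SE 0.41), -0.22 for the Nkx6-1 promoter (0.34), 0.03 for the Rfx6 promoter (0.37) and -0.27 for the Rfx6 intron (0.35), each given with its implied SE. All 4 lay within 1 SE of 0 and below the median fold of the table, 0.16. For the Foxa2 and Rfx6 promoters, with folds under 0.1 in size, the SE is the median of a concentration bin and not their own. With it, the 95% interval of the Foxa2 promoter ran from -0.84 to 0.76 and that of the Rfx6 promoter from -0.70 to 0.76. Changes of that size are thus not excluded. Detection as a peak went from 4 to 2 of 4 libraries at the Rfx6 promoter, from 4 to 3 at its intron and from 3 to 2 at the Nkx6-1 promoter, and stayed at 1 of 4 at the Foxa2 promoter.

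In KO-labelled mice, all 7 regions had a higher mean after PPx, as did 97.1% of all peaks, and none passed. That is 0 of 7 called, where 7.45% of all peaks were called higher. At an unadjusted p under 0.05 the count was 5 of 7, where 39.4% of all peaks had such a p. The median log2 fold of the 7 regions was 0.98, against 0.83 over all peaks. The downstream Nkx6-1 region and Mafa were detected in 0 of 3 libraries before PPx. They were thus listed only through libraries taken after PPx, which favours a higher fold in these counts and this median. The lowest FDR in the authors' deposited table was 0.0628, at the Nkx6-1 promoter, which went from 3.86 to 4.84 (fold 0.99, interval 0.22 to 1.76). The Foxa2 promoter went from 3.74 to 4.72 in the authors' deposited table (fold 0.98, interval 0.19 to 1.77, FDR 0.0698), and the Rfx6 promoter from 4.12 to 5.05 (fold 0.93, interval 0.09 to 1.77, FDR 0.0903). Before PPx 2 of 3 libraries had each of these 3 peaks, and after it 4 of 4 had them.

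The distal Nkx6-1 regions had the 2 largest folds of the 7 in the authors' deposited table of KO-labelled mice, 1.31 downstream (2.54 to 3.85, implied SE 0.60, FDR 0.0877) and 1.23 upstream (2.43 to 3.67, implied SE 0.62, FDR 0.111). Before PPx 0 and 1 of 3 libraries had these peaks, and after it 2 and 3 of 4 did. Since the downstream region was listed only through libraries taken after PPx, its rank is description. The Rfx6 intron went from 3.41 to 4.23 in the authors' deposited table (fold 0.81, implied SE 0.44, FDR 0.131) and the Mafa promoter from 3.14 to 3.81 (fold 0.67, implied SE 0.54, FDR 0.278). Both lay under the median of the table. This comparison and that of genotype after PPx share the 4 KO-labelled libraries taken after PPx, so their folds are not independent. In the same way, each of the 4 comparisons shares a group with 2 of the others.

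**Figure D4:**
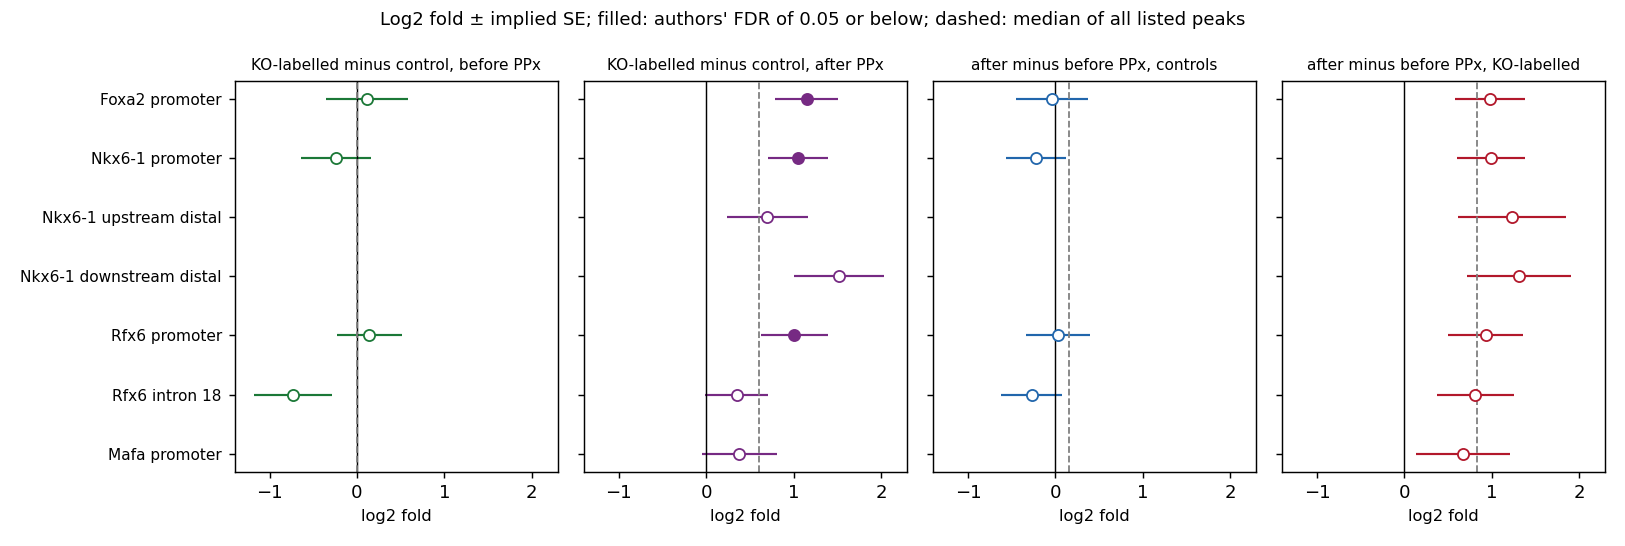
Log2 folds of the 7 regions (rows) in the 4 comparisons (panels), with bars of 1 implied SE; filled points have an authors' FDR of 0.05 or below and the dashed line is the median fold of all listed peaks of that comparison. The 3 filled points are the promoters of Foxa2, Nkx6-1 and Rfx6 for genotype after PPx, with folds of 1.15, 1.05 and 1.01.

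Whether the fold of genotype differed after and before PPx could be tested for the 4 regions listed in both tables of genotype, which share no library. The difference of the log2 folds was 1.29 for the Nkx6-1 promoter (SE 0.53, interval 0.26 to 2.32), 1.08 for the Rfx6 intron (SE 0.57), 1.04 for the Foxa2 promoter (SE 0.60) and 0.87 for the Rfx6 promoter (SE 0.53). In a two-sided z test adjusted over 7504 matched peaks, 0 of 4 passed, with adjusted p between 0.303 and 0.387, where 0.0267% of all matched peaks passed. The Nkx6-1 promoter alone had an unadjusted p under 0.05, as did 14.5% of matched peaks. The median difference over all matched peaks was 0.64, so all 4 regions lay above it, by less than their SEs in 3 cases and by more in that of the Nkx6-1 promoter. The Rfx6 intron reached a difference like that of the promoters from another starting point, with a fold of -0.73 before and 0.35 after PPx.

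Within KO-labelled islets after PPx, the order of the levels in the authors' deposited table was the Rfx6 promoter at 5.05, the Nkx6-1 promoter at 4.87, the Foxa2 promoter at 4.75, the Rfx6 intron at 4.23, the downstream Nkx6-1 region at 3.85, the Mafa promoter at 3.81 and the upstream Nkx6-1 region at 3.67. The 3 leading promoters lay above 73.2%, 67.6% and 63.7% of promoter peaks, and Mafa above 25.4%. In controls after PPx the same promoters kept this order in the authors' deposited table, at 4.04, 3.81, 3.60 and 3.43. Whether neighbours in these orders differ beyond the spread between mice was not tested, since the tables give no spread of a level.

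Other islet transcription factors were taken as a list of 28 genes, of which 8 had 15 peaks in the table of genotype after PPx. Of these peaks 0 were called in either direction, where 9.89% of all peaks were called higher, a share that leaves few calls to a list of this size. The median log2 fold of the list was 0.63, against 0.61 over all peaks. Of all peaks for genotype after PPx, 33.6% had an unadjusted p under 0.05. In the list, only Etv1, Isl1 and Pax6 each had such a peak in the authors' deposited table. These were 0.81 for a distal Etv1 peak (FDR 0.0589), 0.85 for the promoter of Isl1, a LIM homeodomain gene of islet cells (FDR 0.0648), and 0.69 for that of Pax6, a paired box gene of endocrine cells (FDR 0.103), as log2 folds. The promoter of Rfx3, a relative of Rfx6, had 0.63 (FDR 0.199), and a weak distal peak of Nkx2-2 had 0.74 (FDR 1), both from the authors' deposited table. In the table of PPx in KO-labelled islets 1 of 13 peaks was called higher and 0 lower, where 7.45% of all peaks were called higher. It was the promoter of St18, a zinc finger gene, which went from 3.87 to 5.19 in the authors' deposited table (fold 1.32, FDR 0.0374), and the median of the list was 0.59. The list had 0 of 11 and 0 of 10 peaks called in the tables of genotype before PPx and of PPx in controls, with medians of 0.24 and 0.22. Of all peaks in these comparisons 0.0128% and 0% were called higher.

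Genes for the work of the beta cell formed another list. Of 25 genes for insulin synthesis, processing, sensing and release, 18 had 31 peaks for genotype after PPx, with 1 called higher, 0 lower and a median fold of 0.58, where 9.89% of all peaks were called higher. The called peak was the promoter of Ins1, an insulin gene, which went from 4.13 to 5.62 in the authors' deposited table (fold 1.49, FDR 0.0154), and the mouse insulin promoter of the transgene was not separated from it. Peaks of 5 of these genes had an unadjusted p under 0.05 without a call, where 33.6% of all peaks had a p under 0.05. The smallest p in the authors' deposited table was at the promoter of Cpe, a carboxypeptidase that trims prohormones (fold 0.81, FDR 0.0513), and a Cpe intron had 0.71 (FDR 0.102). The other folds were 1.03 at a distal peak of Slc30a8, the granule zinc transporter (FDR 1), 0.68 at the promoter of Ero1lb, an oxidoreductase of the endoplasmic reticulum (FDR 0.076), 0.67 at an exon of Abcc8, the sulfonylurea receptor (FDR 0.101), and 1.02 at the promoter of Pcsk1, a proinsulin convertase (FDR 1), in the authors' deposited table. Scg2, for a granule protein, had 1.04 at its promoter (p = 0.0552) and the 3' UTR of Gipr, an incretin receptor, 0.95 (p = 0.0712) in that deposited table of the authors. These peaks of Slc30a8, Pcsk1, Scg2 and Gipr were detected in 0 of 4 controls. They were thus listed only through KO-labelled libraries, which favours a higher fold. For PPx in KO-labelled islets, 4 of 28 peaks were called higher and 0 lower, where 7.45% of all peaks were called higher, and the median fold was 1.01 against 0.83 over all peaks. Their folds in the authors' deposited table were 1.75 at a distal peak of Gjd2, the connexin that couples beta cells (FDR 0.0231), 1.09 in an intron of Cpe (FDR 0.0467), 1.46 at the promoter of Chgb, a granule protein (FDR 0.0474), and 1.56 in an intron of Slc30a8 (FDR 0.0484). The Gjd2 peak and the Slc30a8 intron were detected in 0 of 3 libraries before PPx. They were thus listed only through libraries taken after PPx, which favours a high fold. At an overlapping Slc30a8 peak for genotype before PPx, controls stood at 4.51 and KO-labelled islets at 3.06, a fold of -1.45 that was not called. For genotype after PPx the fold of the Slc30a8 intron was -0.15. For genotype before PPx and PPx in controls 0 of 13 and 0 of 16 peaks were called, where 0.0128% and 0% of all peaks were called higher.

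Islets are a mixture, and in such samples a change in the number of cells of a type and a change in openness per cell cannot be told apart. For genotype after PPx, the reads summed over the 7 regions were 81.0 in controls and 149.2 in KO-labelled islets. Among the 7, the distal Nkx6-1 regions and Mafa were listed only through KO-labelled libraries. The sum in KO-labelled islets was 1.84 times that in controls for the 7 regions. For 31 peaks of the beta cell function genes the sums were 462.7 and 669.6, or 1.45 times. For 15 peaks of the other islet transcription factors they were 334.4 and 500.8, or 1.5 times. Over 5 peaks of 4 of 9 alpha cell markers the sums were 53.3 and 72.9, over 4 peaks of 3 of 7 delta and PP cell markers 52.0 and 73.8, and over 8 peaks of 5 of 8 endothelial markers 100.4 and 106.6. For stellate cells and fibroblasts they were 46.8 and 67.6 (4 peaks), for leukocytes 17.9 and 27.2 (2 peaks), for ductal cells 15.8 and 19.0 (2 peaks) and for acinar cells 8.3 and 8.9 (1 peak), while Schwann cell markers had 0 peaks. Of the marker peaks of these other cell types 1 was called higher, at Sst, where 9.89% of all peaks were called higher. The part of other cell types in the result was not tested.

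Around the 4 start sites, peaks assigned to other genes were looked at within 150 kb, a window set after the values had been seen. For genotype after PPx there were 3 such peaks near Foxa2, 3 near Nkx6-1, 4 near Rfx6 and 2 near Mafa. Of these peaks 1 was called, a share near the 9.89% of all peaks called higher. It was a distal peak 90899 bp downstream of the Rfx6 start, beyond the end of the gene and assigned to 4933411G06Rik, from 3.00 to 4.15 in the authors' deposited table (fold 1.15, FDR 0.0496). The 3 peaks near Foxa2 all lay at the long non-coding RNA gene 9030622O22Rik, with log2 folds between -0.45 and 0.97 in the authors' deposited table.

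Promoters with the most similar group means were found for each gene by the root mean square difference in log2 units. Over the 8 group means of 4 tables and 4157 genes, the nearest to Foxa2 were Sike1 (0.066), Stom (0.067) and Wdr33 (0.069). The nearest to Nkx6-1 were Ints9 (0.063), Pcnx4 (0.077) and Il6st (0.085), and to Rfx6 Ccdc73 (0.034), Lmna (0.042) and Bbs12 (0.048). For Mafa, over 4 group means of 2 tables and 6451 genes, they were Mib2 (0.030), Fanci (0.031) and Skida1 (0.032).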

How the data were processed

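Open chromatin was measured by ATAC-seq in 15 islet libraries, with 75 bp single-end sequencing, per the labels' protocols. The submitters' processing notes name cutadapt, BWA, MACS, DiffBind and ChIPseeker on mm10, without versions or settings. The authors deposited 4 tables of peaks with group concentrations as log2 normalised reads, a log2 fold, a p-value and an FDR of a test that is not named, and the number of libraries in which the peak was called (another unit, a whole number up to the group size). Depth per library is not given, so no counting interval was computed.

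Full duplicates (1197 to 5281 rows) and 1 blank row were dropped, and the sign of a fold was set so that positive means higher in KO-labelled islets or after PPx. Groups came from the sample titles, and the labels' protocols give as many mice as libraries. The implied SE is the size of the fold over the normal quantile of p, or the median of 1 of 40 concentration bins where a fold was under 0.1 or its p at least 0.95. Intervals are 95% normal intervals. Peaks of 2 tables that overlapped by 1 bp or more were paired, and the difference of folds was tested by a z test with Benjamini-Hochberg adjustment. Scripts (Python 3.11.15, pandas 2.3.3, scipy 1.17.1) were tested on simulated data.

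The 4 genes and the gene lists were chosen with earlier results of these data known. Named were every peak of the 4 genes, list genes with a called peak, and up to 5 further list genes by p for genotype after PPx. Alternatives were another FDR, Benjamini-Hochberg over all peaks, centring on the median fold of the table or of peaks of the same class and concentration bin (10 bins), kept duplicates and a longer overlap. Ero1b was matched by its older symbol Ero1lb. Single-library values were not analysed here.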

Additional observations from a re-analysis of the deposited data

How the results depend on the processing

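For genotype after PPx, 3 regions were called. The count was 0 at an authors' FDR of 0.01, 1 with Benjamini-Hochberg adjustment over all peaks (Foxa2), 0 after centring on the median of the table, 0 after centring on class and concentration bin, and 6 with duplicates kept, since these rows are repeated in the table. For PPx in KO-labelled islets it was 4 in place of 0 at an authors' FDR of 0.1. The share of all peaks called at 0.1 was not computed, so this count is not read as particular to the 4 genes. The other 21 recomputed counts did not move. Centring on the median of the table turned the sign of the Rfx6 intron (-0.26) and Mafa (-0.23) for genotype after PPx, of the Rfx6 promoter in controls (-0.13), and of the Rfx6 intron (-0.02) and Mafa (-0.16) in KO-labelled islets. Centring on class and bin turned those of the Rfx6 intron (-0.06) and Mafa (-0.27) for genotype after PPx, the Rfx6 promoter in controls (-0.10) and Mafa in KO-labelled islets (-0.22). The cause was not tested beyond the construction of these alternatives. The difference of genotype folds had 0 of 4 calls under each alternative; from the 2 tables of PPx, an alternative chosen after seeing the data, it was 0.90 to 1.21. Libraries could not be left out in turn, because only group means were used. No paired analysis was possible because the groups share no sample number. What limits these results is 3 or 4 mice per group and levels of 5.03 to 33.1 normalised reads per peak.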
